A study of Mus musculus with 36 samples.

Results

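The genotype effect under a 60% high-fat diet (HFD) without a molar ligature was measured in 6 of the 36 RNA-seq libraries of the series, 3 labelled CCL19-KI and 3 labelled WT, chosen by their labels for diet, genotype and the absence of a ligature. Each library came from the epididymal white adipose tissue (eWAT) of 1 mouse. All 6 mice were males of the C57BL/6 strain that took the 60% HFD from 6 weeks of age for 10 weeks and were 16 weeks old at the end. WT mice carried no engineered allele. In Adipoq-CCL19-KI mice the murine Ccl19 gene had been inserted at the Adipoq locus with the Adipoq gene kept intact, so that adipocytes drive its expression. The study's methods describe the CCL19-KI line as kept by mating homozygotes and the WT mice as bred separately from C57BL/6 parents. The other 30 libraries were from mice on a normal diet (ND), a 40% HFD or the 60% HFD, with or without a silk ligature around the upper second molar for the last 2 weeks. The text describing the series mentions the ligature for every group, whereas the labels of these 6 libraries name none, and the labels were followed. The study asked how adipose inflammation driven by CCL19 acts on periodontitis, and these 6 libraries hold the genotype effect on eWAT under the fattest diet in mice without a ligature.

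CCL19 and CCL21 are chemokines that bind CCR7, the receptor that guides dendritic cells and naive T cells into lymph nodes. ACKR4 binds the same ligands without signalling through G proteins and removes them from the tissue. White adipocytes store triglyceride in a single large droplet, take up glucose in response to insulin, and secrete hormones such as adiponectin and leptin. Their identity is held by the transcription factors PPARG and C/EBPA, which switch on one another and most genes of lipid storage.

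The files held normalized CPM values (the reads of a gene scaled to the depth of its library), from which the reads of each library could be recovered, 12822163 to 19401991 reads assigned to genes in the 6 libraries. One read was worth 0.0491 to 0.0834 CPM, and 3 reads, the floor used for a gene with no reads, 0.147 to 0.25 CPM. The 10 most abundant genes took 13.9% to 21.5% of the CPM. Values below are normalized CPM in the order of replicates 1, 2 and 3, and they compare libraries for 1 gene, not 1 gene with another. Fold changes are on the log2(CPM + 1) scale with their SE from limma, CCL19-KI against WT, which understates the change of low genes.

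The Ccl19 locus on chromosome 4 holds several near-identical copies, and the sequences of their coding exons (GENCODE, GRCm38) are shown because reads from them can be split between entries. The first coding exon of Ccl19 (chr4:42756270-42756330, minus strand) and that of its copy Gm2564 (chr4:42629894-42629954, plus strand) are printed with the differing base in capitals.
Ccl19: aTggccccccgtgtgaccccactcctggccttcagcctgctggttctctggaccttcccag
Gm2564: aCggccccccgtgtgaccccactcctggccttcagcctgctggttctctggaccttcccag
The difference is T2C, counted from the first coding base of Ccl19, and it lies in the start codon. It is the only difference over the 324 coding bases of both entries, and 77.7% of the 31-base stretches of the Gm2564 transcript also occur in that of Ccl19. The second exon of Ccl21a (chr4:42773643-42773763, minus strand) differed from that of its copy Gm10591 (chr4:42612350-42612470, plus strand) by T17A, counted from the first base shown.
Ccl21a: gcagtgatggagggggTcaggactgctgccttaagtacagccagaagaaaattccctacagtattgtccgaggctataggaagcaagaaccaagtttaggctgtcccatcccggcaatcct
Gm10591: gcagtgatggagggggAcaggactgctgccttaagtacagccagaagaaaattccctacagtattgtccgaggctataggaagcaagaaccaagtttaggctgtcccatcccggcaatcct
The coding sequences of Ccl21b and Gm10591 did not differ (0 of 399 bases), and the files gave both the same value in every library. Levels within these groups of copies are therefore uncertain, and the sum over copies is the safer reading.

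Ccl19, the targeted gene, stood at 1.207, 1.42 and 1.08 in the WT libraries and at 5.57, 11.8 and 0.687 in the libraries labelled CCL19-KI. Gm2564 had no read in any WT library and stood at 11.7, 15.0 and 0 in those labelled CCL19-KI. CCL19-KI replicates 1 and 2 thus lay above every WT library for both genes, whereas the library labelled CCL19-KI replicate 3 lay below the lowest WT library for Ccl19 and had no read of Gm2564. Its values go against its label, so the main results are given with the labels as deposited and again without it. Some lists and single genes are given in 1 way only, with the labels as deposited unless stated. In the other unligatured groups, Ccl19 ranged from 11.8 to 27.5 in the 6 libraries labelled CCL19-KI, so that replicate 1 here, at 5.57, lay below each of them, and from 0.826 to 4.51 in 5 of the 6 labelled WT. The sixth, labelled WT replicate 2 under ND, stood at 19.2 for Ccl19 and 41.9 for Gm2564 and also goes against its label. That library enters the comparison only through the shared estimate of the spread and through the difference from ND.

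With the labels as deposited, Ccl19 differed by 1.23 ± 0.72 on the log2 scale (limma adjusted p = 0.307) and did not pass the test. Without CCL19-KI replicate 3 the difference was 2.04 ± 0.67, given with no test because that library is left out for its level of this gene and of Gm2564. Gm2564, whose WT libraries were all at 0, had a mean over the 3 libraries labelled CCL19-KI at least 39.1-fold higher than the floor of 3 reads per WT library, with replicate 3 itself at 0. The mean of replicates 1 and 2 alone was at least 58.6-fold higher, a description for the same reason. Some of the other genes that earlier work on these data tied to genotype in ligatured mice split the libraries the same way. The histone gene Hist1h4m had no read in the WT libraries and stood at 24.3, 40.0 and 0 in those labelled CCL19-KI. Naip6, an inflammasome sensor gene, stood at 0.134, 0.0834 and 0.0768 in WT and at 6.14, 7.07 and 0.0982 in CCL19-KI. Both genes were high only in CCL19-KI replicates 1 and 2 among these 6. Not all entries of that list did so. For 5 of them all 3 CCL19-KI libraries lay above all WT libraries, as for 13.8% of all genes. Entpd4, 1 of the 5, stood at 24.5, 19.7 and 20.5 in WT and at 48.5, 126.6 and 108.2 in CCL19-KI. Of the 12 entries on that list, 5 rose and 2 fell with the labels as deposited, and 6 rose and 0 fell without CCL19-KI replicate 3. Among all genes 9.99% rose and 9.93% fell in the former case, and 10.7% and 11.7% in the latter. The list was chosen on libraries of this series, so its direction is no independent evidence.

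**Figure D1:**
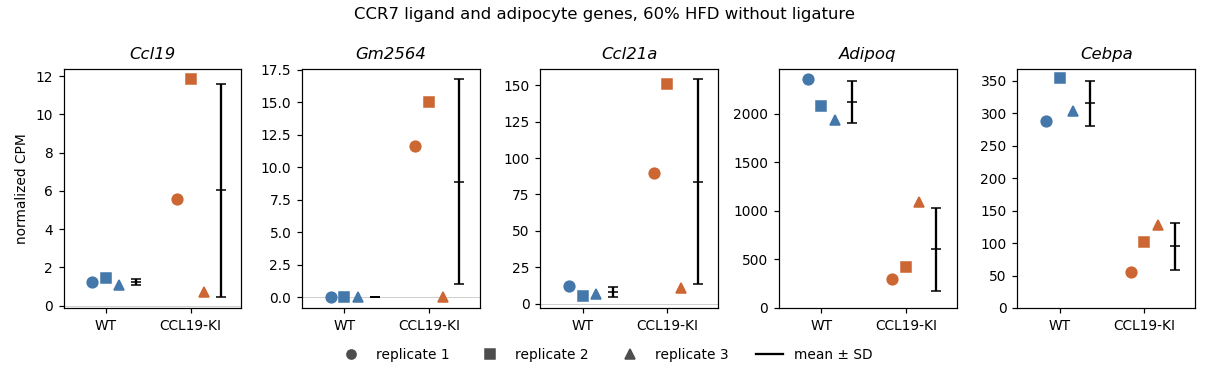
Normalized CPM (linear axes, 1 scale per gene) of Ccl19, its copy Gm2564, Ccl21a, Adipoq and Cebpa in the 3 WT and 3 CCL19-KI libraries fed 60% HFD without ligature, with marker shapes for replicates 1 to 3 and the mean ± SD (n = 3) beside them. CCL19-KI replicate 3 lies at WT level for Ccl19 (0.687) and Gm2564 (0), while Adipoq and Cebpa lie below every WT library in all 3 CCL19-KI libraries.

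Ccl21a and the entry shared by Ccl21b and Gm10591, of the other CCR7 ligand, were high in the same 2 libraries. Ccl21a, the CCL21 gene expressed in lymphoid stroma, stood at 11.9, 5.25 and 7.07 in WT and at 89.8, 151 and 10.6 in CCL19-KI. The entry shared by Ccl21b and Gm10591 stood at 6.30, 3.25 and 1.46 in WT and at 34.6, 68.8 and 2.45 in CCL19-KI. The groups overlapped with the labels as deposited, and CCL19-KI replicates 1 and 2 lay above all WT libraries for both. Without CCL19-KI replicate 3, Ccl21a rose by 3.76 ± 1.67 (limma adjusted p = 0.164) and the Ccl21b entry by 3.55 ± 1.63 (adjusted p = 0.176). Gm13304, whose coding bases equal those of Gm10591 (0 of 399 differ), went the other way, by -0.62 with the labels as deposited. In unligatured mice on 40% HFD, Ccl21a overlapped between the groups, at 0.526, 47.6 and 56.2 in WT and 14.3, 0.334 and 42.6 in CCL19-KI. Ccr7 itself stood at 1.54, 1.58 and 0.998 in WT and at 2.22, 1.59 and 1.32 in CCL19-KI, a difference of 0.19 ± 0.23 within the spread of the libraries. Ackr4 stood at 11.5, 13.8 and 9.45 in WT and at 34.0, 20.4 and 8.10 in CCL19-KI and passed the test in neither fit. Of 10 tested genes of the CCL19 axis, 1 rose with the labels as deposited and 5 without CCL19-KI replicate 3, several of which are copies of one another. Over all genes 9.99% rose in the former fit and 10.7% in the latter. Ccl19 and Gm2564 are among the 5, and their part in that count was fixed by leaving out the library on their values. In the fit with the labels as deposited and with both tissue scores described below added, 0 of the 10 were called (5.19% of all genes rose and 5.66% fell in that fit). The 5 lymph node stroma genes tested gave no call in either fit.

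The 6 libraries also differed in RNA of other tissues, and every result below was read beside these values. The 20 hepatocyte markers, among them albumin and major urinary protein genes, summed to 14730, 43810 and 59800 CPM in the WT libraries and to 1233, 2164 and 1400 in the CCL19-KI libraries. Across the other 10 groups of the series the same sum ran from 134.7 to 60790. All 20 hepatocyte markers passed as lower in CCL19-KI, with a median difference of -5.93 (-4.25 without CCL19-KI replicate 3). Of 13 tested kidney tubule markers, 8 fell and 1 rose, with summed levels of 262, 303 and 244 in WT and 158, 90.1 and 197 in CCL19-KI. Among all genes 9.93% fell and 9.99% rose. Slc34a1, the phosphate transporter of the proximal tubule, stood at 33.5, 33.5 and 23.0 in WT and at 0.341, 0.3605 and 0 in CCL19-KI. The one riser, Pax2, stood at 79.2 in CCL19-KI replicate 3 and at no more than 2.33 elsewhere.

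RNA of the epididymis, which adjoins this fat pad, went the other way. The 15 epididymis markers summed to 0.201, 0.167 and 0.154 in WT, where 13 of them had no read in any library, and to 384, 8483 and 13090 in CCL19-KI. Crisp1, a sperm-binding protein gene of the epididymal epithelium, had no read in the WT libraries and stood at 275, 200 and 9541 in CCL19-KI, at least 14690-fold above the floor and 1044-fold without CCL19-KI replicate 3. The summed list was far lower in CCL19-KI replicate 1 than in the other two, although Crisp1 was not. The 14 germ cell markers summed to 21.1, 12.3 and 13.6 in WT, where 9 had no read, and to 1437, 44.4 and 245 in CCL19-KI. Prm2, a sperm protamine gene, had no read in WT and stood at 253, 3.75 and 34.1 in CCL19-KI. The smooth muscle markers, 12 genes, summed to 423, 385 and 589 in WT and 1862, 1338 and 1269 in CCL19-KI, with 8 of 12 called higher, and 5 higher and 1 lower without CCL19-KI replicate 3. The share of all genes called higher was 9.99%, and 10.7% without that library (11.7% lower). Myh11, the smooth muscle myosin heavy chain, stood at 9.39, 6.34 and 4.61 in WT and at 251, 63.2 and 226 in CCL19-KI. The 19 adipocyte identity genes summed to 14340, 13210 and 12790 in WT and 7883, 10070 and 8830 in CCL19-KI, lower in every CCL19-KI library. Markers of the labelled tissue were thus present in every library. Hepatocyte markers were higher in the WT group, and epididymis, germ cell and smooth muscle markers in the CCL19-KI group. Hepatocyte, germ cell and smooth muscle markers had reads in both groups, and the tissue that this RNA came from was not tested.

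**Figure D2:**
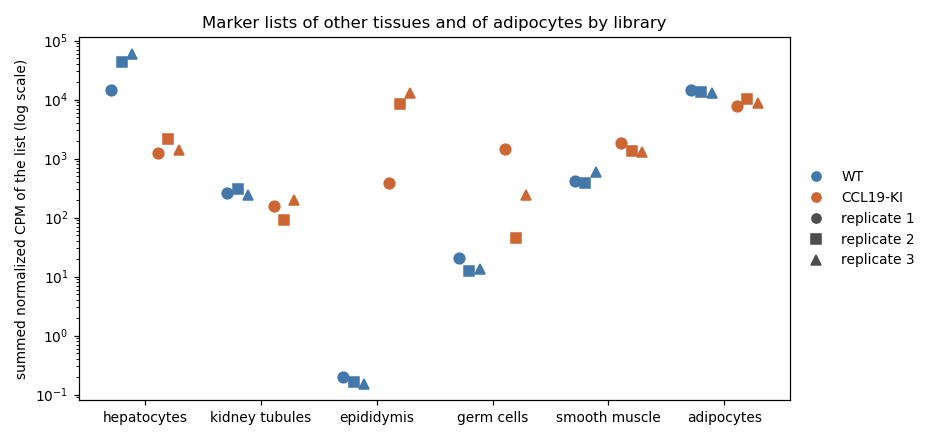
Summed normalized CPM (log axis) of 6 marker lists in the 3 WT and 3 CCL19-KI libraries, with marker shapes for the replicates. Hepatocyte markers lie higher in all WT libraries (14730 to 59800 against 1233 to 2164), and epididymis, germ cell and smooth muscle markers lie higher in all CCL19-KI libraries.

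A gene was called a differentially expressed gene (DEG) when its limma p did not exceed 0.05 and its ratio was 1.5 or more, or 0.67 or less, which are the study's criteria. With the labels as deposited, 1690 of 16923 genes rose in CCL19-KI (9.99%) and 1681 fell (9.93%). After Benjamini-Hochberg adjustment in limma, 207 rose (1.22%) and 480 fell (2.84%) at an adjusted p below 0.05. Every CCL19-KI value lay above every WT value for 13.8% of genes and below for 17%. Without CCL19-KI replicate 3, 1796 of 16712 genes rose (10.7%) and 1949 fell (11.7%), of which 117 (0.7%) and 150 (0.898%) passed the adjusted threshold, and the groups did not overlap for 24.5% of genes (above) and 28.7% (below). Of the DEGs, 2423 were called in both fits, 71.9% of those with the labels as deposited and 64.7% of those without that library, all in the same direction. The median difference of all genes was 0.03 and 0.02. The adjusted calls rested on single libraries: 0 genes passed without WT replicate 2 and 0 without WT replicate 3, and 16 without WT replicate 1, whereas the DEG criteria, which use the unadjusted p, gave 2693, 2453 and 3258 DEGs in those fits. Since RNA of other tissues moved with genotype, fits with the hepatocyte score, or with the hepatocyte and epididymis scores, as covariates were added after the data were seen. They gave 2197 and 1837 DEGs, with 1 and 0 genes at an adjusted p below 0.05. Both scores separated the genotypes in these 6 libraries. The hepatocyte score was 1.14, 2.73 and 3.17 in WT and -2.52, -1.81 and -5.84 in CCL19-KI. The epididymis score was -1.02, -1.03 and -1.03 in WT and 1.05, 6.28 and 2.08 in CCL19-KI. Genotype and other-tissue RNA therefore cannot be told apart here, and differences from these fits are descriptions.

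The 10 largest falls among genes with separated groups were Mup7, Mup19, Serpina1e, Mup14, Mup11, Mup1, Mup22, Mup3, Serpina1c and Alb, which encode urinary pheromone carriers, antitrypsins and albumin made by the liver. The Mup genes are near-identical copies whose reads can be split between entries, so single members are uncertain. Mup7 stood at 576, 3202 and 2420 in WT and at 1.82, 1.23 and 2.36 in CCL19-KI, a difference of -9.22 ± 1.10 (limma adjusted p = 0.00951). Alb stood at 5796, 17090 and 24130 in WT and at 444, 890 and 6.38 in CCL19-KI. The 10 largest rises were Crisp1, Akr1b7, Actg2, Spink8, Defb42, Adam7, Cuzd1, Ptgs2, Prom1 and Prm2. Of these, Crisp1, Defb42 and Adam7 stood on the epididymis list, Actg2 on the smooth muscle list and Prm2 on the germ cell list. Akr1b7, an aldose reductase relative, stood at 632, 1.73 and 38410 in CCL19-KI and at no more than 0.538 in WT. Ptgs2, the inducible prostaglandin synthase, stood at 2.48, 3.00 and 1.61 in WT and at 96.0, 6.06 and 6618 in CCL19-KI. CCL19-KI replicate 3 thus carried most of the signal of Akr1b7 and Ptgs2, and neither was called without it (adjusted p = 0.387 and 0.435).

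The mean level of Cebpa, a master regulator of adipocytes, was 3.33-fold higher in WT than in CCL19-KI. Of the 19 adipocyte identity genes, 0 rose and 7 fell with the labels as deposited, with a median difference of -0.93, and 0 rose and 12 fell without CCL19-KI replicate 3, with a median of -1.15. The median over all genes was near 0 in both fits, and 9.93% and 11.7% of all genes fell. In bulk tissue, fewer adipocytes and less RNA per adipocyte cannot be told apart. Cebpa stood at 288, 354 and 304 in WT and at 55.0, 101 and 128 in CCL19-KI, and all CCL19-KI libraries lay below all WT libraries. It fell by 1.80 ± 0.29 on the log2 scale (limma adjusted p = 0.0236), and by 2.06 ± 0.30 without CCL19-KI replicate 3 (adjusted p = 0.0188). Pparg, the other master regulator, stood at 98.0, 90.8 and 87.3 in WT and at 37.3, 53.4 and 62.3 in CCL19-KI, a fall of 0.87 ± 0.32 that missed the adjusted threshold (adjusted p = 0.117). Nr1h3, which encodes the oxysterol receptor LXR alpha, stood at 71.3, 81.8 and 90.6 in WT and at 25.2, 41.0 and 29.4 in CCL19-KI (-1.35 ± 0.33, limma adjusted p = 0.0432). Without CCL19-KI replicate 3, Nr1h3 did not pass the adjusted threshold. With the hepatocyte and epididymis scores as covariates, the differences were -1.56 for Cebpa, -1.17 for Pparg and -0.13 for Nr1h3, and the list gave 11 falls of 19, against 5.66% of all genes in that fit, and a median of -1.56. Fabp4, the fatty acid carrier of adipocytes, differed little in level, at 6695, 6131 and 6292 in WT and 5391, 6067 and 3809 in CCL19-KI (-0.35 ± 0.50), and Cebpd, Ebf2 and Zfp423 overlapped between the groups.

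Among secreted products of adipocytes, the adiponectin gene separated the groups and the leptin gene did not. Adipoq, the gene at whose locus Ccl19 was inserted, stood at 2354, 2076 and 1931 in WT and at 300, 417 and 1095 in CCL19-KI. All CCL19-KI libraries lay below WT, and the library labelled CCL19-KI replicate 3 lay nearest to WT. Adipoq fell by 2.03 ± 0.58 with the labels as deposited (limma adjusted p = 0.06) and by 2.57 ± 0.59 without that library (adjusted p = 0.0486). Relative to the median of the adipocyte identity list in the same library, Adipoq differed by -0.99 on the log2 scale (-1.35 in replicates 1 and 2), and the groups overlapped (two-sided exact permutation p = 0.2, where 3 against 3 libraries cannot go below 0.1). Rbp4, a retinol carrier made by fat and liver, stood at 596, 1180 and 1569 in WT and at 182, 238 and 183 in CCL19-KI (-2.37 ± 0.56, adjusted p = 0.0426), and its difference was 0.12 with both tissue scores in the fit. Rbp4 did not pass the adjusted threshold without CCL19-KI replicate 3. Nampt, an enzyme of NAD synthesis that is also secreted, fell by 0.70 ± 0.23, a difference that went to 0 with both scores. Lep, the satiety hormone gene, stood at 3204, 1689 and 1826 in WT and at 1618, 1779 and 1646 in CCL19-KI, and the groups overlapped (-0.35 ± 0.85). Cfd, Retn, Retnla and Rarres2 overlapped as well, and 3 of 13 adipokine genes fell and 0 rose in each fit. Among all genes 9.93% fell with the labels as deposited and 11.7% without CCL19-KI replicate 3.

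**Figure D3:**
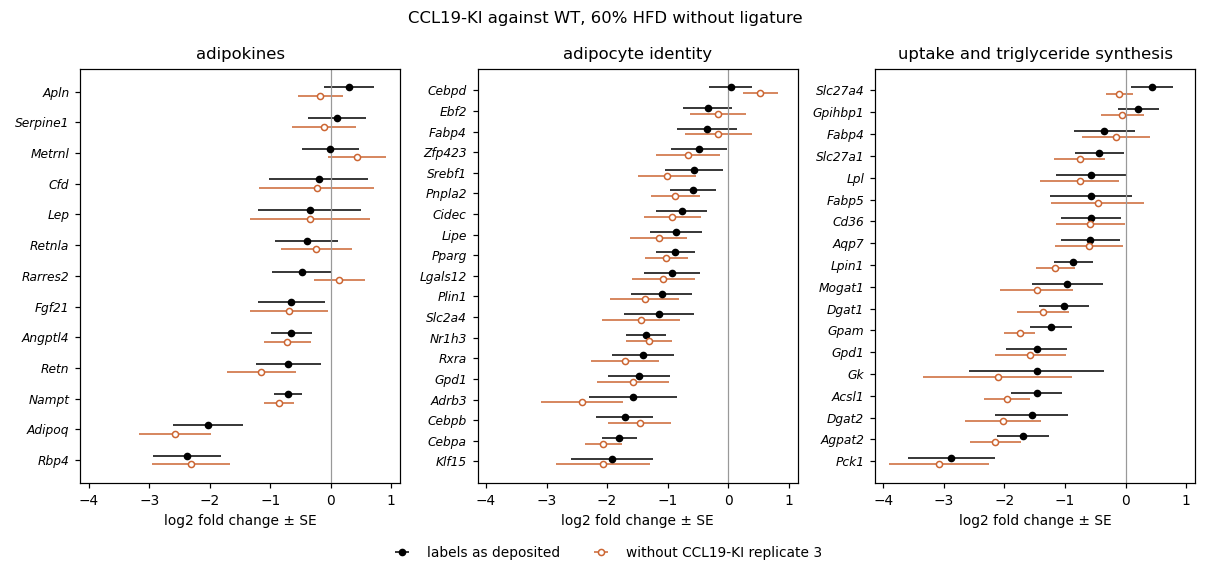
Log2 fold change ± SE (limma, CCL19-KI against WT) of adipokine, adipocyte identity and fatty acid uptake and triglyceride synthesis genes, with the labels as deposited (filled) and without CCL19-KI replicate 3 (open). Most genes lie left of 0, with Cebpa at -1.80 and Adipoq at -2.03, while Lep (-0.35) and Cfd (-0.20) lie near 0.

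Of 18 genes of fatty acid uptake and triglyceride synthesis, 8 fell and 0 rose with the labels as deposited (median -0.91), and 9 fell without CCL19-KI replicate 3 (median -1.27). The share of all genes that fell was 9.93% in the former fit and 11.7% in the latter. Gpam, the first acyltransferase of glycerolipid synthesis, stood at 248, 292 and 249 in WT and at 81.5, 73.5 and 231 in CCL19-KI. CCL19-KI replicates 1 and 2 stood far below WT and replicate 3 next to it, and the fall was 1.23 ± 0.35 (limma adjusted p = 0.06) and, without replicate 3, 1.75 ± 0.25 (adjusted p = 0.017). Agpat2, the next acyltransferase, whose loss causes lipodystrophy, stood at 321, 239 and 162 in WT and at 43.8, 60.3 and 136 in CCL19-KI (-1.69 ± 0.43, adjusted p = 0.0462, and -2.15 ± 0.42, adjusted p = 0.0363). Acsl1, which activates fatty acids to acyl-CoA, stood at 2071, 2054 and 2244 in WT and at 376, 791 and 1515 in CCL19-KI (-1.96 ± 0.38 without replicate 3, adjusted p = 0.0363). Acsl1 did not pass the adjusted threshold with the labels as deposited. Dgat2, the last step of triglyceride synthesis, fell by 1.55 ± 0.60. Pck1, which supplies glycerol phosphate in fat and glucose in liver, stood at 1332, 2623 and 3020 in WT and at 180, 374 and 389 in CCL19-KI (-2.88 ± 0.72, adjusted p = 0.0432). Pck1 did not pass the adjusted threshold without replicate 3. With both tissue scores in the fit, Gpam differed by -1.37, Agpat2 by -1.65, Dgat2 by -2.58 and Pck1 by -1.70, and 4 genes of the list were called lower (5.66% of all genes fell in that fit). Lpl, the lipase on capillary walls, and Cd36, the fatty acid transporter, differed by -0.57 ± 0.58 and -0.57 ± 0.50, about the size of their SE.

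Of 16 lipolysis and lipid droplet genes, 4 fell and 0 rose (median -0.81), and 7 fell without CCL19-KI replicate 3 (median -0.90). The share of all genes that fell was 9.93% with the labels as deposited and 11.7% without CCL19-KI replicate 3. G0s2, an inhibitor of the lipase ATGL, stood at 133, 132 and 144 in WT and at 37.7, 65.0 and 42.4 in CCL19-KI (-1.52 ± 0.34, limma adjusted p = 0.0426). No gene of this list passed the adjusted threshold without CCL19-KI replicate 3. Plin4, a droplet coat protein gene, stood at 3133, 3112 and 2310 in WT and at 738, 1118 and 2383 in CCL19-KI, where replicate 3 was at WT level. The lipase genes Lipe and Pnpla2 were called lower only in the fit without replicate 3, and that difference between fits was not tested. Of 16 fatty acid synthesis genes, 5 fell and 0 rose (median -0.80), and 6 fell without CCL19-KI replicate 3 (median -1.14). Mlxipl, which encodes the carbohydrate-responsive factor ChREBP, stood at 29.8, 37.8 and 37.2 in WT and at 5.34, 11.7 and 14.3 in CCL19-KI (-1.74 ± 0.47, adjusted p = 0.0531), and its difference was -0.37 with both tissue scores in the fit. Fasn, fatty acid synthase, overlapped between the groups (2997, 1552 and 1248 against 574, 963 and 2003), as did Acly and Elovl6.

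Of 18 genes of insulin signalling and glucose uptake, 7 fell and 1 rose with the labels as deposited (median -0.53), and 9 fell and 1 rose without CCL19-KI replicate 3 (median -0.69). Over all genes 9.93% fell and 9.99% rose in the former fit, and 11.7% and 10.7% in the latter. Akt2, the kinase through which insulin moves glucose transporters in fat, stood at 309, 301 and 295 in WT and at 155, 170 and 181 in CCL19-KI. The groups were narrow and apart, with a fall of 0.84 ± 0.17 (limma adjusted p = 0.0397), of 0.89 ± 0.19 without replicate 3 (adjusted p = 0.0448), and a difference of -1.04 with both tissue scores in the fit. Irs1, the docking protein below the insulin receptor, stood at 53.8, 68.2 and 52.3 in WT and at 29.3, 23.2 and 28.9 in CCL19-KI (-1.07 ± 0.25, adjusted p = 0.0426, and -1.12 with both scores). Foxo1, a factor that AKT inactivates, stood at 81.2, 93.0 and 131 in WT and at 49.5, 59.6 and 56.0 in CCL19-KI (-0.85 ± 0.20, adjusted p = 0.0426). Pfkfb3, an activator of glycolysis, stood at 880, 668 and 519 in WT and at 89.3, 208 and 430 in CCL19-KI (-2.30 ± 0.47 without replicate 3, adjusted p = 0.043). Irs1 and Foxo1 did not pass the adjusted threshold without replicate 3, and Pfkfb3 did not with the labels as deposited. The riser was Socs3, an inhibitor of cytokine and insulin signalling, which stood at 5.83, 5.34 and 5.22 in WT and at 13.5, 9.16 and 7.95 in CCL19-KI (0.76 ± 0.22, adjusted p = 0.061). Akt1, the isoform found in most tissues, was higher in every CCL19-KI library (69.4, 75.5 and 79.1 against 90.2, 91.0 and 122) but its ratio did not reach 1.5. Slc2a4, the insulin-responsive glucose transporter GLUT4, was lower in every CCL19-KI library (67.8, 62.6 and 46.9 against 16.4, 26.5 and 40.3) and was called only without replicate 3 (-1.44 ± 0.64, adjusted p = 0.164).

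Fatty acid oxidation, respiratory chain and cholesterol lists had falls and no rises with the labels as deposited, and the hepatocyte sums given above moved with them. Of 22 fatty acid oxidation genes, 16 fell and 0 rose (median -1.44), and 17 fell without CCL19-KI replicate 3. Among all genes 9.93% fell with the labels as deposited and 11.7% without CCL19-KI replicate 3. Ppara, the liver's main regulator of fatty acid oxidation, stood at 51.1, 144 and 186 in WT and at 4.77, 10.2 and 9.77 in CCL19-KI. Acot3, a peroxisomal thioesterase gene, stood at 31.9, 52.2 and 72.2 in WT and at 0.682, 1.66 and 0 in CCL19-KI (-4.93 ± 1.08, limma adjusted p = 0.0419). Without CCL19-KI replicate 3 no gene of this list passed the adjusted threshold. Within the WT group Ppara and Acot3 were lowest in replicate 1 and highest in replicate 3, as the hepatocyte sums were. That order rests on 3 libraries, and a link to liver RNA was not tested. With the hepatocyte score in the fit, 0 of the 22 genes were called (5.03% of all genes rose and 7.95% fell in that fit) and the median was -0.14. With both scores the median was 0.19. The scores separated the genotypes, so these fits cannot tell liver RNA from genotype. Of 24 nuclear genes of oxidative phosphorylation, 11 fell and 0 rose (median -0.58), among them Ndufs1 of complex I and the complex II genes Sdha, Sdhb and Sdhc, and 0 were called with the hepatocyte score in the fit. Of 20 cholesterol synthesis genes, 9 fell and 0 rose (median -0.58), and 10 fell without CCL19-KI replicate 3 (median -1.13). In this list 3 genes passed the adjusted threshold with the labels as deposited and 1 without CCL19-KI replicate 3. Hmgcs1, which makes the precursor of mevalonate, stood at 479, 491 and 403 in WT and at 99.2, 211 and 191 in CCL19-KI (-1.52 ± 0.37, adjusted p = 0.0426, and -1.49 with both scores). Of 12 thermogenesis genes 4 fell, namely Elovl3, Slc27a2, Kcnk3 and Ucp3. Elovl3 and Slc27a2 changed sign with the hepatocyte score in the fit. Slc27a2, an acyl-CoA synthetase abundant in liver, stood at 220, 559 and 811 in WT and at 14.4, 27.3 and 18.2 in CCL19-KI, while Ucp1, the uncoupling protein of brown fat, was at or below 0.691 in all 6 libraries.

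Calls among immune genes are read beside the shares over all genes. With the labels as deposited 9.99% of all genes rose and 9.93% fell, and without CCL19-KI replicate 3 10.7% rose and 11.7% fell. Of 20 general macrophage genes, 1 rose and 1 fell with the labels as deposited (median 0.21), and 3 rose and 0 fell without CCL19-KI replicate 3 (median 0.60). Lyve1, a marker of vessel-associated resident macrophages and of lymphatic endothelium, stood at 25.6, 34.2 and 39.2 in WT and at 104, 90.3 and 39.3 in CCL19-KI (1.12 ± 0.51 and, without replicate 3, 1.55 ± 0.53, limma adjusted p = 0.193 and 0.0963). Cd163, a scavenger receptor of resident macrophages, stood at 70.8, 68.6 and 71.9 in WT and at 140, 154 and 49.7 in CCL19-KI and was called only without replicate 3. Adgre1, which encodes F4/80, overlapped in both fits (126, 67.5 and 80.7 against 94.6, 137 and 36.9). Among lipid-associated macrophage genes Cd9 rose and Apoe fell, the latter also an abundant liver product. Spp1, which encodes osteopontin, stood at 8.78, 4.84 and 5.30 in WT and at 4.09, 9.88 and 1.23 in CCL19-KI and overlapped in both fits (-0.51 ± 0.74 and 0.07 ± 0.79). Il1b and Ccl2, inflammatory genes that were also assayed by qPCR in this project, overlapped between the groups (-0.05 ± 0.29 and 0.39 ± 0.52). Tnf, at 0.671, 0.334 and 0.538 in WT and 1.19, 0.721 and 0.344 in CCL19-KI, did not pass the filter on low values.

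Calls among genes of lymphoid and dendritic cells, the cells that CCR7 ligands attract, are read beside the shares over all genes. Those were 9.99% up and 9.93% down with the labels as deposited, and 10.7% and 11.7% without CCL19-KI replicate 3. In the latter fit the calls of the dendritic and B cell lists were all rises. The dendritic cell list summed to 141, 99.6 and 97.2 CPM in WT and to 123, 134 and 79.7 in CCL19-KI, and the B cell list to 670, 486 and 392 against 537, 404 and 361. Both overlapped between the groups, as did the T and NK cell list, at 45.5, 34.0 and 41.5 in WT and 43.2, 172 and 454 in CCL19-KI, where Gata3 made up most of replicate 3. Of 14 dendritic cell genes, 0 were called with the labels as deposited and 3 rose without CCL19-KI replicate 3, which were Flt3, Itgae and Ccl22. Flt3, the growth factor receptor of dendritic cells, stood at 1.207, 2.17 and 1.61 in WT and at 3.86, 3.75 and 0.638 in CCL19-KI. Of 16 T and NK cell genes, 2 rose and 1 fell in the deposited labelling, Cd247 and Gata3 up and Themis down. Gata3 stood at 432 in CCL19-KI replicate 3 and at 8.01 and 8.51 in the other two, against 0.384 to 1.67 in WT. Themis stood at 6.71, 10.4 and 17.1 in WT, in the order of the hepatocyte sums, a link that was not tested. Cd4, the helper T cell coreceptor, stood at 0.872, 0.751 and 0.998 in WT and at 2.27, 1.95 and 0.589 in CCL19-KI. These levels are low, and no lymphoid or dendritic gene named here passed the adjusted threshold. Of 17 B cell genes, 1 rose with the labels as deposited and 4 without CCL19-KI replicate 3, among them the light chain gene Igkc (5.97, 15.4 and 17.0 against 78.4, 30.9 and 8.34). Of 10 class II presentation genes, 1 was called, H2-Oa without CCL19-KI replicate 3.

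Among 28 cytokine and chemokine genes, 3 rose and 2 fell with the labels as deposited, and 4 rose and 2 fell without CCL19-KI replicate 3. Over all genes 9.99% rose and 9.93% fell in the former fit, and 10.7% and 11.7% in the latter. Ccl12, a monocyte-attracting CCR2 ligand, stood at 0.335, 0.2502 and 0.461 in WT and at 4.32, 2.31 and 1.18 in CCL19-KI. It was low in every library but separated between the groups, with a rise of 1.32 ± 0.32 (limma adjusted p = 0.0426), 1.64 ± 0.32 without CCL19-KI replicate 3 (adjusted p = 0.0363) and a difference of 1.02 with both tissue scores in the fit. Cxcl14 and Cx3cl1 were the other risers, and Il33, an alarmin of stromal cells, was called without replicate 3 (14.8, 22.2 and 24.1 against 72.2, 34.4 and 12.3). Cxcl12, the stromal ligand of CXCR4, fell by 0.94 ± 0.39 and differed by 0.02 with both scores. Of 20 interferon-stimulated genes, 0 rose and 2 fell with the labels as deposited. Of 17 acute phase and complement genes, 1 rose and 4 fell, and the riser Lcn2 stood at 42.7, 1007 and 36.5 in CCL19-KI against 9.01 to 13.5 in WT. With both tissue scores in the fit, the differences of Apoe, Cd9, Gata3, Themis and Cx3cl1 changed sign. No gene of the cytokine and general macrophage lists was called there (5.19% of all genes rose and 5.66% fell in that fit).

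Of 25 fibrosis and matrix genes, 0 were called, and of 13 progenitor and fibroblast genes also 0. Without CCL19-KI replicate 3, Tgfbi of the former list and Pdgfra, Ly6a, Dcn and Icam1 of the latter rose. Pdgfra, the growth factor receptor that marks fat progenitors, stood at 87.5, 69.4 and 51.5 in WT and at 119, 265 and 57.1 in CCL19-KI, and Dcn, a matrix proteoglycan gene, at 1382, 1269 and 1310 against 3123, 2214 and 620. For both, CCL19-KI replicate 3 lay within or below the WT range. Of 17 proliferation genes, 2 rose, and 4 rose without CCL19-KI replicate 3. The shares over all genes were 9.99% up and 9.93% down with the labels as deposited, and 10.7% and 11.7% without CCL19-KI replicate 3. Ccnb2, a mitotic cyclin gene, stood at 2.35, 0.667 and 0.922 in WT and 15.7, 3.82 and 2.55 in CCL19-KI. It was highest in the library with the most germ cell RNA, a link that was not tested. Of 14 immediate early genes, 3 rose in both fits, Fosb, Junb and Ier2, and Junb stood at 31.0, 18.9 and 18.6 in WT and 50.2, 46.6 and 33.0 in CCL19-KI. With both tissue scores in the fit the median of that list was -0.32 and Fosb changed sign. Of 15 endothelial genes Lyve1 rose and Prox1 fell. Prox1, which marks both lymphatic endothelium and hepatocytes, stood at 45.2, 116 and 106 in WT and at 6.42, 10.5 and 1.03 in CCL19-KI, so the pair of lymphatic markers went in opposite directions, although the sign of Prox1 changed with the hepatocyte score in the fit.

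**Figure D4:**
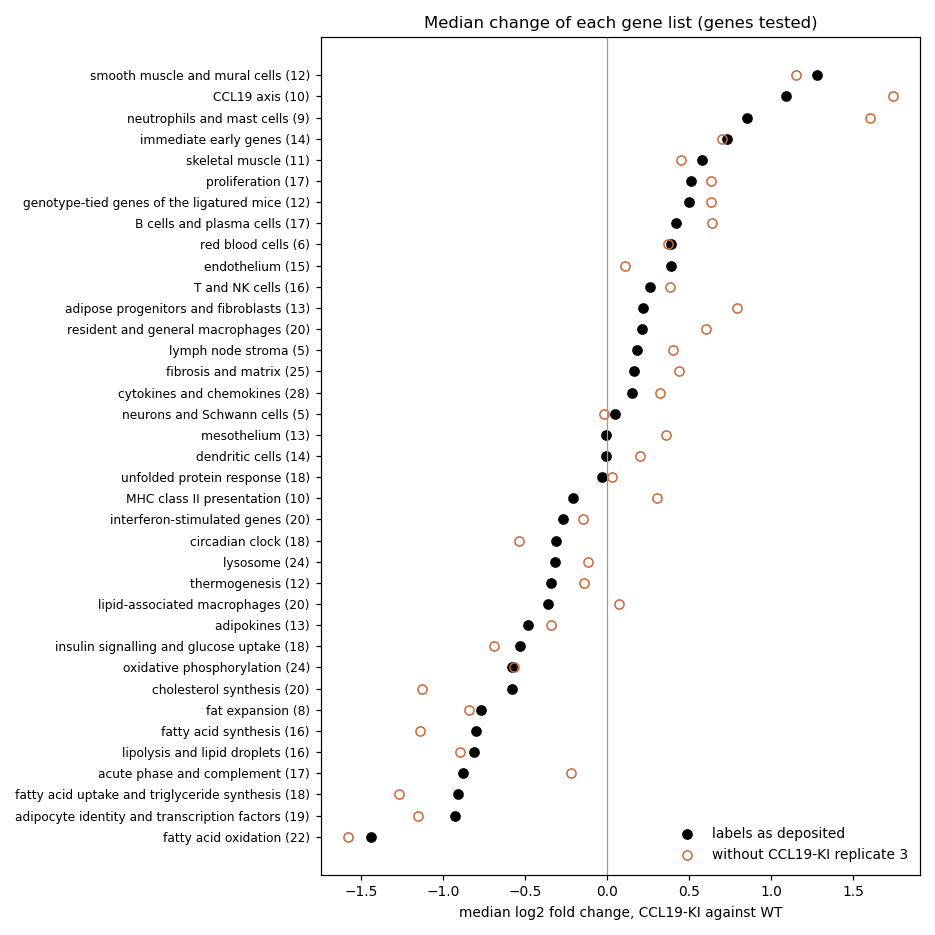
Median log2 fold change (CCL19-KI against WT) of each gene list except those of liver, kidney, pancreas, epididymis and germ cells, with the labels as deposited (filled) and without CCL19-KI replicate 3 (open), and the number of genes tested in brackets. Fatty acid oxidation (-1.44), adipocyte identity (-0.93) and triglyceride synthesis (-0.91) lie lowest, and smooth muscle (1.28) and the CCL19 axis (1.09) highest.

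Of 13 mesothelium genes Krt19 rose, with a sign change once the hepatocyte score was in the fit, and lists without a call in the fit with the labels as deposited also included lysosome, circadian clock, red blood cell, skeletal muscle, neuron and exocrine pancreas genes. Of 18 clock genes, Cry2, Dbp and Tef fell without CCL19-KI replicate 3, which lay within the WT range for Dbp and Tef and above it for Cry2. Of 9 neutrophil and mast cell genes, Kit, the stem cell factor receptor of mast cells, rose in both fits (5.50, 6.17 and 5.61 against 16.4, 15.4 and 7.02). Of 8 fat expansion genes only Peg3 was called, lower in CCL19-KI, while Mest, an imprinted gene tied to fat expansion, overlapped between the groups (1254, 792 and 956 against 386, 802 and 453). With the hepatocyte score in the fit all 8 fell (7.95% of all genes fell in that fit), with a median of -2.48 against -0.77. Of 18 unfolded protein response genes, 3 fell and 0 rose.

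The genotype effect under 60% HFD was then set against that under the other conditions, each with its own WT and CCL19-KI libraries. It differed from the effect under ND for 1457 of 16923 genes (8.61%) at a limma adjusted p below 0.05, for 1150 (6.88%) without CCL19-KI replicate 3, and for 675 (4.1%) when the ND library labelled WT replicate 2 was left out as well. Of 20 hepatocyte markers 19 differed, and of 13 germ cell markers 9. Under ND the hepatocyte sum was 134.7, 1128 and 1543 in WT and 1490, 38700 and 53720 in CCL19-KI, so that the larger sums lay in CCL19-KI, the reverse of 60% HFD. None of the 19 adipocyte identity genes differed between the 60% HFD and ND effects. Under ND without ligature Cebpa stood at 284.7, 243.5 and 450.9 in WT and at 157.1, 203.6 and 199.3 in CCL19-KI, also without overlap. Against 40% HFD, 0 genes differed (0%) with the labels as deposited, where 2613 had an unadjusted p below 0.05 and edgeR also gave 0, and 1 gene (0.00598%) differed without CCL19-KI replicate 3. That gene was Tex47, a testis gene, which stood at 0, 0.0834 and 0 in WT and at 9.21, 11.0 and 0.196 in CCL19-KI.

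Set against ligatured mice on the same diet, the genotype effect differed for 2 of 17852 genes (0.0112%), Cnbd2 and 1 of the 2 entries of St6galnac2, and for 64 of 17751 (0.361%) without CCL19-KI replicate 3. Cebpa was among the 64. In ligatured mice it stood at 309, 242 and 247 in WT and at 274, 279 and 253 in CCL19-KI, so the groups overlapped there, and the difference between the effects was -2.08 (limma adjusted p = 0.027, and 0.1 with the labels as deposited). Rgs5, a pericyte gene, stood at 55.8, 62.6 and 50.9 in unligatured WT and 20.2, 32.7 and 104 in unligatured CCL19-KI, against 52.9, 36.8 and 46.5 and 90.2, 64.4 and 91.9 with ligature (difference -1.94, adjusted p = 0.027). The autophagy gene Atg7 and the ribosomal protein genes Rps15a and Rps24 differed as well, Atg7 by -1.27 and Rps24 by 1.32. Adipoq, in contrast, was lower in CCL19-KI in the ligatured mice too (3059, 2291 and 1435 against 930, 470 and 1178). Hepatocyte sums with ligature were 18150 to 52220 in WT and 3818 to 30320 in CCL19-KI, and epididymis sums no more than 49.4 in any of those 6 libraries. The part of other-tissue RNA in these differences was not tested.

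**Figure D5:**
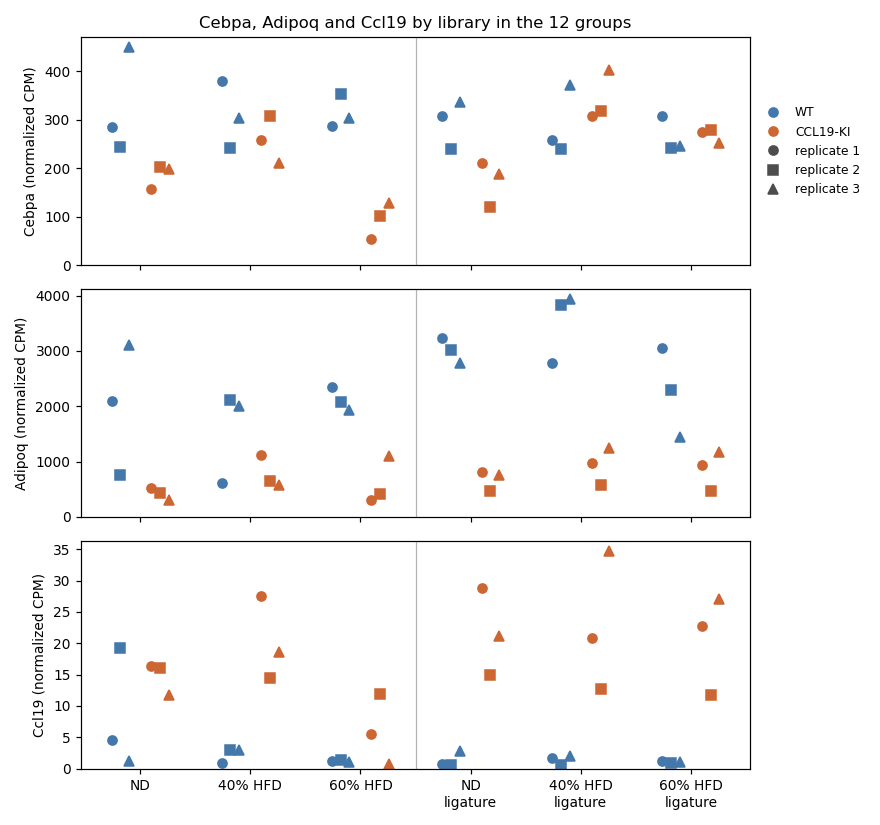
Normalized CPM (linear axes from 0) of Cebpa, Adipoq and Ccl19 in each library of the 12 groups, by diet and ligature, with WT and CCL19-KI in colour and marker shapes for replicates. Cebpa separates the genotypes under 60% HFD without ligature (55.0 to 128 in CCL19-KI, 288 to 354 in WT) and overlaps with ligature, whereas CCL19-KI replicate 3 under 60% HFD and WT replicate 2 under ND lie at the Ccl19 level of the other genotype.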

How the data were processed

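Total RNA from eWAT was depleted of ribosomal RNA, made into strand-directed libraries and sequenced as paired reads of 150 nt. Per the labels and the study's methods, the authors trimmed reads with Trimmomatic 0.38, estimated gene counts with RSEM 1.3.0 on Bowtie2 alignments and normalized them with edgeR. The labels name build GRCm39, whereas the study's methods name mm10, so coordinates here are those of GENCODE M21 (GRCm38), which held 24634 of the 24750 gene IDs. The deposited values, treated as signal, were normalized CPM per gene and library, and every value was a whole multiple of 1 read within a tolerance of 0.01. No column of the table lacked a sample. RSEM can split reads between near-identical genes, and floors cover counting error only. The SE of a fold change comes from the spread between libraries in the limma fit.

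Genes with at least 1 CPM in 3 or more libraries were tested with limma 3.58.1 (trend) on log2(CPM + 1), with 1 mean for each of the 6 groups in the 18 unligatured libraries. DEGs had p of 0.05 or less and a ratio outside 0.67 to 1.5, and adjusted p-values are Benjamini-Hochberg values over all genes. Effects were compared between conditions by contrasts of the same fit, or, for ligature, of a fit of all 36 libraries. Alternatives were edgeR 4.0.16 and DESeq2 1.42.0 on the recovered reads, other pseudocounts, filters, scalings and library sets, and covariates formed from the hepatocyte and epididymis markers. The scripts were tested on simulated data. Each library was 1 mouse, and p-values measure the spread between these mice.

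The comparison, the gene lists and the rule for named genes were chosen with earlier results of these data known. The rule named the genes of the CCL19 axis and Adipoq, the 10 largest rises and falls among DEGs with separated groups (8 without CCL19-KI replicate 3), genes past the adjusted threshold up to 15 a fit, list members that were DEGs in either fit with up to 4 that were not, and the 4 eWAT genes assayed by qPCR. Named outside the rule, after their values were seen, were Acly, Adgre1, Akt1, Cd36, Cebpd, Cfd, Ebf2, Elovl6, Fabp4, Fasn, Lep, Lpl, Mest, Rarres2, Retn, Retnla, Ucp1 and Zfp423 from the lists and the genes whose effect differed between conditions. List genes with no row in the table were not analysed here. A few list members are counted but not reported here by name.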

Additional observations from a re-analysis of the deposited data

Results flagged for a closer look

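The genotype effect under 60% HFD differed between conditions by the limma test of the difference itself, with values and no explanation given here. Against ND, 1457 genes differed, 1150 without CCL19-KI replicate 3, and 675 with the ND library labelled WT replicate 2 also left out. Among the named genes, 77 differed from ND with the labels as deposited and 74 without CCL19-KI replicate 3. Against 40% HFD without CCL19-KI replicate 3, 1 gene differed, Tex47, by 3.53 on the log2 scale.

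Against ligatured mice on 60% HFD, 2 genes differed with the labels as deposited and 64 without CCL19-KI replicate 3, of which 0 and 3 were named genes. With the labels as deposited, Cnbd2 differed by 2.34 (limma adjusted p = 0.0201), with 2.08, 3.17 and 3.53 CPM in WT, 19.9, 11.0 and 28.9 in CCL19-KI, and 2.68 to 4.16 in all ligatured libraries of this diet. St6galnac2 (ENSMUSG00000110170) differed by 2.83 (adjusted p = 0.0348), with no more than 0.241 CPM in any ligatured library and 16.2, 2.02 and 5.45 in unligatured CCL19-KI. This entry overlaps another St6galnac2 entry, and reads can be split between them. Without CCL19-KI replicate 3, Tex47 differed by 3.48 (adjusted p = 1.8e-08), Rps15a by 1.06, Rgs5 by -1.94, Rps24 by 1.32, Cebpa by -2.08 and Atg7 by -1.27. For Rps15a, Rps24 and Rgs5 the left-out library lay on the other side of the WT libraries from CCL19-KI replicates 1 and 2. RNA of the epididymis, germ cells and liver moved with genotype in the unligatured libraries, and its part in these differences was not tested.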

How the results depend on the processing

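The number of DEGs with the labels as deposited (3371, 50.1% higher) was 2179 with a mean of at least 5 CPM (34.2% higher), 2159 with a ratio of 2, 2197 with the hepatocyte score, 1837 with both tissue scores, and 2453 to 3745 with 1 library left out, and it stayed within 1.5 times in the other fits, with 34.7% higher in the 6 compared libraries alone. The number at an adjusted p below 0.05 (687) was 1082 with a pseudocount of 0.1, 28 with a pseudocount of 5, 61 with no filter, 1242 by edgeR, 2915 by DESeq2, 2998 with all 36 libraries, 4843 with sample quality weights, 1 with the hepatocyte score, 0 with the epididymis score, 0 with both, and with 1 library left out 0 (WT replicate 2 or 3), 16 (WT replicate 1), 49 (CCL19-KI replicate 1), 267 (CCL19-KI replicate 3) or 1127 (CCL19-KI replicate 2). In the fit that omits CCL19-KI replicate 3, the 267 genes became 728 by edgeR, 1714 with the 5 compared libraries alone, 629 with the ND library labelled WT replicate 2 left out and 3 with both scores, which gave 2449 DEGs instead of 3745. The difference from ND (1457 genes) was 2670 by edgeR, 853 without that ND library, 675 without CCL19-KI replicate 3 as well, and 566 (without WT replicate 3) to 1877 with 1 library left out, and 572 without WT replicate 2. That from 40% HFD (0) was 10 without the ND library, 21 without both libraries and 0 to 126 (without CCL19-KI replicate 2) with 1 left out. That from ligature (2) was 1 with a pseudocount of 0.1, 1 by edgeR, 77 without the ND library, 313 without both and 0 (without WT replicate 1 or 2) to 598 (without CCL19-KI replicate 2) with 1 left out. The cause was not tested.

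Same-numbered mice did not deviate together (r = 0.023, 0.017 and -0.02 over 16923 genes), so the numbers were not taken to pair them. With a replicate block there were 3352 DEGs and 487 adjusted calls with the labels as deposited, 22 adjusted calls without CCL19-KI replicate 3, and 1368, 0 and 7 genes for the differences from ND, 40% HFD and ligature.

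List medians larger than the spread between libraries changed sign only in fits with tissue scores, which were chosen after seeing the data. Those scores separated the genotypes in the 6 libraries, so these fits cannot tell genotype from other-tissue RNA. With the hepatocyte score the median was -0.29 for lymph node stroma, 0.16 for the circadian clock, -0.03 for immediate early genes and 0.49 for the hepatocyte markers that form it. With both scores it was 0.19 for fatty acid oxidation, 0.1 for oxidative phosphorylation, -0.22 for lymph node stroma, 0.26 for acute phase genes, -0.03 for smooth muscle, 0.06 for the clock, -0.32 for immediate early genes and 0.43 for hepatocytes. Among called genes in the text, the sign changed with the hepatocyte score for Alb (0.05), Apoe (0.28), Prox1 (0.72), Krt19 (-0.19), Slc27a2 (0.07) and Elovl3 (0.21), and with both scores for Ptgs2 (-1.44), Apoe (0.15), Fosb (-0.13), Pax2 (-0.24), Sdhb (0.15), Prox1 (0.18), Gata3 (-0.83), Nampt (0, rounded), Krt19 (-0.75), Rbp4 (0.12), Cd9 (-0.22), Cx3cl1 (-0.92), Elovl3 (0.91), Themis (0.38) and Cxcl12 (0.02). Over all named genes it changed for 33 and 59, and for 0 with the epididymis score alone. Genes under about 1 CPM rest on few reads at this depth.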
